A study of Dicentrarchus labrax with 30 samples.

Results

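The genes described here are the amino acid and neurotransmitter transporters of the European sea bass (Dicentrarchus labrax), a marine fish. They were taken as every row of the deposited count table whose gene symbol, after upper-casing, belongs to solute carrier (SLC) family 1, 3, 6, 7, 17, 18, 32, 36, 38 or 43. The rule found 121 of 26719 gene identifiers, with 69 distinct symbols in 10 families, and it used no measured value. SLC6 had 41 members, SLC7 had 23, SLC1 had 16 and SLC38 had 13. SLC17 had 9, SLC43 had 7, SLC3 had 5, SLC18 and SLC32 had 3 each, and SLC36 had 1. A symbol was shared by more than 1 identifier for 34 symbols, which covered 86 members, so each gene is named below by its symbol and identifier. Paralogs with near-identical stretches, or pieces of a single gene, could split reads between identifiers, and these cannot be told apart in the table. SLC7A6OS DLAgn_00154820 matched by its symbol only. It is named for lying opposite SLC7A6 and is not a transporter.

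Solute carriers move small molecules across membranes, and these families carry amino acids and their relatives. The vesicular carriers (SLC17, SLC18 and SLC32) load transmitter into synaptic vesicles, and SLC1 and SLC6 carriers take transmitter back up from outside the cell along the sodium gradient. SLC7 light chains bind an SLC3 heavy chain and exchange amino acids, SLC38 carriers move glutamine and other small neutral amino acids, SLC36 and part of SLC38 act on lysosomes, and SLC43 carriers pass large neutral amino acids. These roles are known mostly from mammals.

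Bold and shy fish were chosen as the extremes of repeated tests of the time taken to leave a shelter, and the study asked how their transcriptomes differ. Each of 10 fish gave whole brain, pituitary and head kidney, which made 30 libraries of polyadenylated RNA, read from a single end over 50 nt. Each tissue had 5 bold libraries (3 male, 2 female) and 5 shy libraries (2 male, 3 female), all sampled at 478 days after fertilization. The labels give no strain, genotype or administered agent. Libraries are numbered within each group in deposit order, so a number does not tie a brain to a pituitary, and the libraries of 1 fish were treated as independent where tissues were compared.

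Total counts ranged between 7916478 and 20067656 in brain, between 3808645 and 12550808 in pituitary, and between 4667992 and 26837997 in head kidney. Transporter members took 0.391 to 0.578% of counts in brain, 0.291 to 0.386% in pituitary and 0.0902 to 0.14% in head kidney. The tissue labels fitted several of the markers looked up: the 25 neuron markers summed to 6545 to 9069 CPM (counts scaled to the effective library size) in brain and 7.69 to 12.2 CPM in head kidney. TSHB DLAgn_00096090, a pituitary hormone subunit, had 1518 CPM or more in every pituitary library, and 20 kidney tubule markers summed to at most 1.8 CPM in head kidney, whose 8 erythroid markers summed to 148200 CPM or more. Other markers and lists did not follow the labels. Of the 5 pituitary hormone cell markers, TSHB among them, 3 were called lower in brain than in pituitary and 2 higher, by the rule given below. Their sum was 1611 to 3460 CPM in pituitary, 97.3 to 192.1 CPM in head kidney and 3.47 to 11.5 CPM in brain. The kidney tubule markers summed to 22.2 to 87.7 CPM in pituitary. The 7 brain vessel and choroid markers summed to 92.1 to 139.9 CPM in brain and 366.3 to 566.1 CPM in head kidney. Of 27 oligodendrocyte and myelin markers tested, 16 were called lower in brain than in head kidney and 10 higher, by the rule given below. Brain shy 4 and brain shy 1 stood apart, with median Spearman correlations to the other brain libraries of 0.731 and 0.925, against 0.98 to 0.986 in the other 8. Ribosomal protein genes took 0.0137% of the counts of brain shy 4. Pituitary shy 1 and shy 2 stood apart too (0.919 and 0.906, ribosomal protein share 2.7% and 1.67%, against 3.58 to 4.98% in the other 8), and they are the only shy males.

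Across tissues, more members were higher than lower in brain and in pituitary relative to head kidney. Of 92 members that passed the count filter over the 30 libraries, 42 were highest in brain, 36 in pituitary and 14 in head kidney. The other 29 of the 121 passed in no fit, and both SLC6A19A DLAgn_00199210 and SLC6A19A DLAgn_00220500 among them had no count at all. A member was called between tissues at an adjusted p under 0.05 and an absolute log2 difference of at least 1. Brain was higher than head kidney for 54 members and lower for 17, 71 called of 92, where 63.6% of all 20598 tested genes were called, 37.6% higher and 26% lower. Pituitary was higher than head kidney for 46 and lower for 13, 59 called, against 56.7% of all genes (34.2% higher, 22.5% lower). Brain was higher than pituitary for 35 and lower for 26, 61 called, against 41.9% of all genes (23.3% higher, 18.6% lower). The median log2 difference of the 92 members was 3.56 for brain minus head kidney (2.99 with genes at 0 set to their bound), 2.03 for pituitary minus head kidney and 0.13 for brain minus pituitary. Over all genes tested the medians were 0.21, 0.18 and 0.07 in the same order, and size factors in place of TMM moved them by 0.15, 0.07 and 0.07. In whole tissues, fewer cells of a type and less RNA per cell cannot be told apart.

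**Figure D1:**
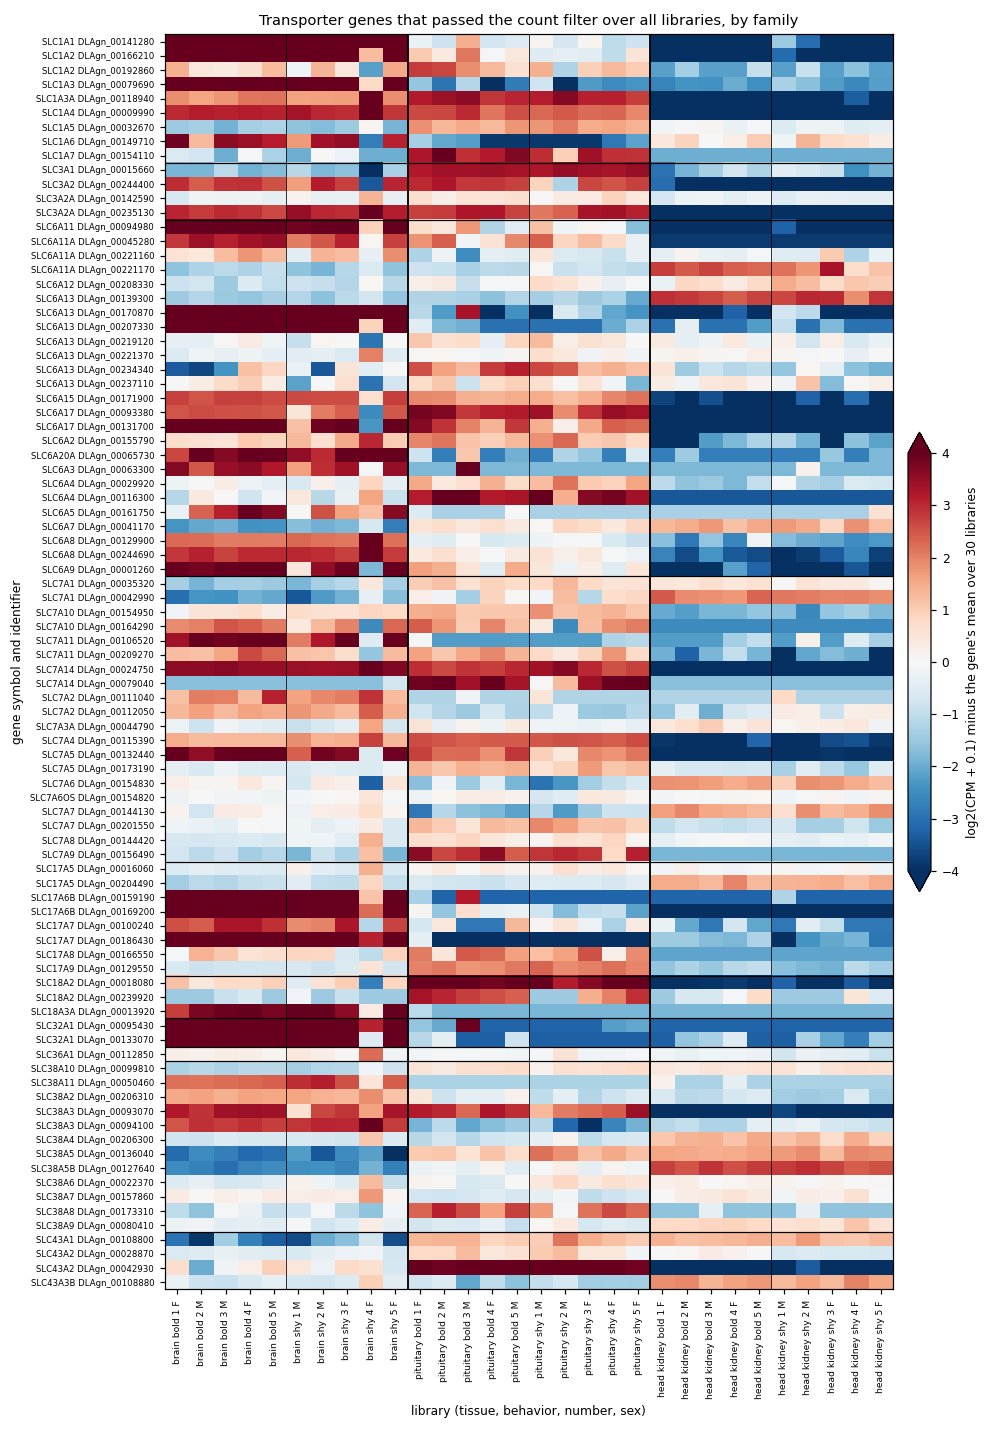
Rows are 88 of the 92 transporter genes that passed the count filter over all libraries, grouped by family, columns are the 30 libraries, and colour is log2(CPM + 0.1) minus the gene's mean over the libraries, with the scale ending at 4 in each direction. Most rows are blue in head kidney, and the column of brain shy 4 differs from the other 9 brain columns.

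Among vesicular glutamate transporters, which load glutamate into synaptic vesicles, SLC17A7 and SLC17A6B were higher in brain than in both other tissues. SLC17A7 DLAgn_00186430 ranged over 17.3 to 252 CPM in brain (median 193), 0 to 1.45 CPM in pituitary (median 0) and 0 to 0.775 CPM in head kidney (median 0.478). Its brain minus pituitary log2 difference was 11.41 ± 0.698 (SE, edgeR adjusted p = 8.35e-13), and a single pituitary library, bold 1, had all of its pituitary counts. A paralog row, SLC17A7 DLAgn_00100240, had medians of 4.38 CPM in brain, 0.591 CPM in pituitary and 0.0724 CPM in head kidney. SLC17A6B DLAgn_00169200, of the other main vesicular glutamate carrier, ranged over 11.8 to 184 CPM in brain (median 148) and 0.466 to 3.94 CPM in pituitary (median 1.28), and no head kidney library had a count. It was higher in brain by 6.47 on the log2 scale than in pituitary, and at least 5190-fold higher than in head kidney, set against a floor of 3 counts over the 10 libraries. SLC17A8 DLAgn_00166550, the third vesicular glutamate carrier, went the other way between brain and pituitary, with medians of 0.641 CPM in brain, 1.39 CPM in pituitary and 0 CPM in head kidney and a brain minus pituitary log2 difference of -1.37 ± 0.398 (SE, edgeR adjusted p = 0.00527).

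GABA and glycine are loaded into vesicles by SLC32A1, which had 3 identifiers. SLC32A1 DLAgn_00133070 ranged over 0.578 to 46.7 CPM in brain (median 34.5), 0 to 0.635 CPM in pituitary (median 0) and 0 to 0.576 CPM in head kidney (median 0.178), with a brain minus pituitary log2 difference of 9.10 ± 0.745 (SE, edgeR adjusted p = 1.69e-10). SLC32A1 DLAgn_00095430 had 7.74 to 50.7 CPM in brain (median 38.6), 0 counts in head kidney, and 14.1 CPM in pituitary bold 3 against at most 0.208 CPM in the other 9 pituitary libraries. Acetylcholine is loaded by SLC18A3, and SLC18A3A DLAgn_00013920 had 0.347 to 8.65 CPM in brain (median 5.08), 1 count over the pituitary libraries and none in head kidney. Monoamines are loaded by SLC18A2, and here pituitary was the highest tissue. SLC18A2 DLAgn_00018080 ranged over 0.462 to 8.42 CPM in brain (median 6.34), 33.3 to 98.4 CPM in pituitary (median 64.1) and 0 to 0.3 CPM in head kidney (median 0.0800), and the brain minus pituitary log2 difference was -3.56 ± 0.298 (SE, edgeR adjusted p = 3.82e-11). Another row of the symbol, SLC18A2 DLAgn_00239920, had medians of 0 CPM in brain, 1.42 CPM in pituitary and 0.0737 CPM in head kidney.

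SLC17A9 DLAgn_00129550, the vesicular nucleotide carrier, was also higher in pituitary, with 12.7 to 33.6 CPM in brain (median 13.8), 80.2 to 116 CPM in pituitary (median 94.1) and 6.23 to 11.7 CPM in head kidney (median 8.53). Its brain range lay below its pituitary range, and the log2 difference was -2.60 ± 0.150 (SE, edgeR adjusted p = 1.73e-14). SLC17A5 DLAgn_00204490, of the lysosomal sialic acid exporter, was instead higher in head kidney, with medians of 5.33 CPM in brain, 6.86 CPM in pituitary and 28.8 CPM in head kidney and a brain minus head kidney log2 difference of -2.18 ± 0.180 (SE, edgeR adjusted p = 8.65e-12). The other SLC17A5 row, SLC17A5 DLAgn_00016060, was called in no pair of tissues and had medians of 18.9 CPM in brain, 31.9 CPM in pituitary and 26.0 CPM in head kidney.

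**Figure D2:**
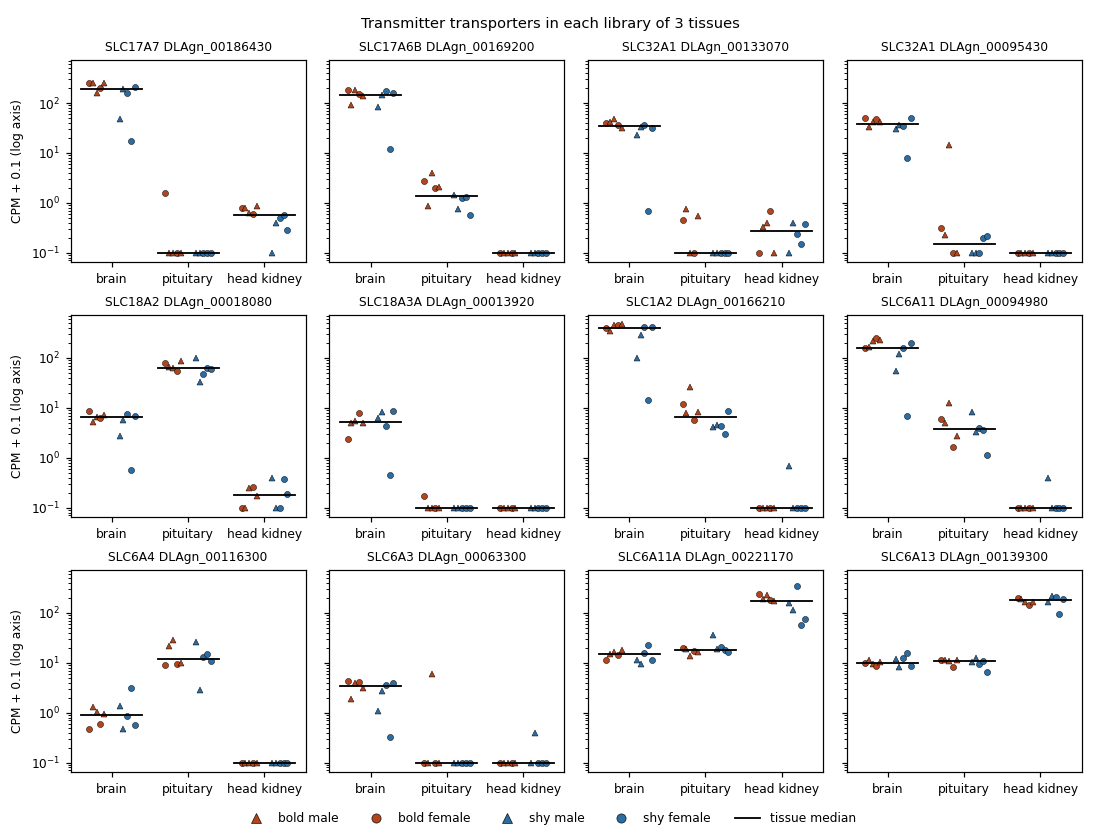
Each panel is a transmitter transporter, each point a library in brain, pituitary or head kidney, and the vertical axis is CPM + 0.1 on a log axis, with colour for behavior, shape for sex and a line at the median of the 10 libraries. SLC17A7 and SLC1A2 are highest in brain, SLC18A2 and SLC6A4 DLAgn_00116300 in pituitary, and SLC6A11A DLAgn_00221170 and SLC6A13 DLAgn_00139300 in head kidney, and pituitary bold 3 lies above the other pituitary libraries for SLC32A1 DLAgn_00095430 and SLC6A3.

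Of the glutamate uptake carriers of the SLC1 family, SLC1A2 and SLC1A1 were higher in brain than in both other tissues, and SLC1A2 is the main glial glutamate transporter of mammals. SLC1A2 DLAgn_00166210 had 14.0 to 481 CPM in brain (median 403) and 2.83 to 25.7 CPM in pituitary (median 6.59), and 2 counts in all head kidney libraries, a brain over head kidney ratio of 20400-fold (95% counting interval 5650 to 169000). SLC1A1 DLAgn_00141280, a neuronal glutamate transporter in mammals, had 112 to 469 CPM in brain (median 128) and 2.12 to 12.2 CPM in pituitary (median 2.88), a log2 difference of 5.32 ± 0.374 (SE, edgeR adjusted p = 1.01e-12). The SLC1A3 rows, of the other glial glutamate carrier, divided between brain and pituitary. SLC1A3 DLAgn_00079690 had medians of 58.6 CPM in brain, 0.218 CPM in pituitary and 0.244 CPM in head kidney, and the brain minus pituitary log2 difference was 7.50 ± 0.473 (SE, edgeR adjusted p = 1.1e-13). SLC1A3A DLAgn_00118940 had medians of 49.8 CPM in brain, 125 CPM in pituitary and 0.347 CPM in head kidney, and its brain minus pituitary log2 difference was -1.02 ± 0.289 (SE, edgeR adjusted p = 0.0029). SLC1A6 DLAgn_00149710 had medians of 13.8 CPM in brain, 0.0505 CPM in pituitary and 1.98 CPM in head kidney and SLC1A7 DLAgn_00154110 of 0.0954 CPM in brain, 3.14 CPM in pituitary and 0 CPM in head kidney.

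The neutral amino acid members of SLC1 also differed between tissues. SLC1A4 DLAgn_00009990, which carries serine, alanine and cysteine, had medians of 67.8 CPM in brain, 42.2 CPM in pituitary and 0.0231 CPM in head kidney, and its pituitary minus head kidney log2 difference was 8.88 ± 0.395 (SE, edgeR adjusted p = 1.33e-17). SLC1A5 DLAgn_00032670, which carries glutamine, was highest in pituitary, with 15.0 to 58.4 CPM in brain (median 20.4), 138 to 228 CPM in pituitary (median 162) and 38.1 to 60.0 CPM in head kidney (median 48.6). Its pituitary libraries all lay above the libraries of the other tissues, and the brain minus pituitary log2 difference was -2.90 ± 0.190 (SE, edgeR adjusted p = 2.56e-13).

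SLC6 held the largest set, with 29 of 41 members tested over all libraries, 20 higher and 4 lower in brain than in head kidney. GABA uptake is the work of several SLC6 carriers, SLC6A11 and SLC6A13 among them. SLC6A11 DLAgn_00094980 had 6.93 to 251 CPM in brain (median 160.3) and 1.05 to 12.2 CPM in pituitary (median 3.63), with a brain minus pituitary log2 difference of 5.05 ± 0.473 (SE, edgeR adjusted p = 1.8e-09). Other rows of the same symbols were highest in head kidney. SLC6A13 DLAgn_00139300 had 8.25 to 15.8 CPM in brain (median 9.99), 6.41 to 12.1 CPM in pituitary (median 10.8) and 95.4 to 214 CPM in head kidney (median 178), and the brain minus head kidney log2 difference was -4.03 ± 0.152 (SE, edgeR adjusted p = 3.29e-19). SLC6A11A DLAgn_00221170 had 9.49 to 23.1 CPM in brain (median 14.6), 13.9 to 36.02 CPM in pituitary (median 18.2) and 56.1 to 341 CPM in head kidney (median 176), a brain minus head kidney log2 difference of -3.57 ± 0.255 (SE, edgeR adjusted p = 3.66e-13). SLC6A13 DLAgn_00207330, another SLC6A13 row, was instead a brain row, with 1.39 to 34.3 CPM in brain (median 26.7), 0 to 0.484 CPM in pituitary (median 0.0505) and 0 to 0.520 CPM in head kidney (median 0) and a brain minus pituitary log2 difference of 7.58 ± 0.626 (SE, edgeR adjusted p = 2.85e-11). In SLC6A13 DLAgn_00139300 and SLC6A11A DLAgn_00221170, every head kidney library lay above every brain and pituitary library.

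SLC6A12 DLAgn_00208330, the betaine and GABA transporter, had 1.65 to 4.97 CPM in brain (median 2.46), 2.41 to 8.05 CPM in pituitary (median 4.96) and 3.85 to 13.2 CPM in head kidney (median 8.21), and it was called only for brain minus head kidney, at -1.64 ± 0.211 (SE, edgeR adjusted p = 5.06e-08). Of the plasma membrane monoamine transporters, the serotonin transporter SLC6A4 was highest in pituitary. SLC6A4 DLAgn_00116300 had 0.368 to 3.00 CPM in brain (median 0.801) and 2.73 to 29.0 CPM in pituitary (median 11.8) and no count in head kidney, and the brain minus pituitary log2 difference was -3.92 ± 0.437 (SE, edgeR adjusted p = 1.49e-07). SLC6A4 DLAgn_00029920 had medians of 8.80 CPM in brain, 22.9 CPM in pituitary and 4.62 CPM in head kidney, and its brain minus pituitary log2 difference was -1.27 ± 0.215 (SE, edgeR adjusted p = 8.94e-06). SLC6A2 DLAgn_00155790, the noradrenaline transporter, had medians of 12.2 CPM in brain, 14.8 CPM in pituitary and 1.48 CPM in head kidney, and brain and pituitary were not called different, at -0.26 ± 0.348 (SE, edgeR adjusted p = 0.524). SLC6A3 DLAgn_00063300, the dopamine transporter, had 0.231 to 4.26 CPM in brain (median 3.28). In pituitary its counts came from bold 3 alone, at 5.91 CPM.

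Pituitary bold 3 was also alone among pituitary libraries in some other transporters that were high in brain, though not in SLC17A7 DLAgn_00186430. Of the 72 members tested in pituitary it was the highest library for 9 (9.25% of all genes) and the lowest for 12 (8.11% of all genes). Bold 3 had 16.7 CPM of SLC6A13 DLAgn_00170870, where the other 9 pituitary libraries had at most 1.03 CPM. Its SLC17A6B DLAgn_00159190 stood at 8.31 CPM, against at most 0.277 CPM in the others. The 25 neuron markers summed to 1653 CPM in this library, against 1022 to 1340 CPM in the other 9, and TH DLAgn_00209490, the enzyme that starts dopamine synthesis, had 50.8 CPM against at most 0.127 CPM. In brain, this TH row had 0.2311 to 2.725 CPM and SLC6A3 DLAgn_00063300 at most 4.261 CPM, below their bold 3 values. SLC6A13 DLAgn_00170870 had 46.84 CPM or more in brain, above its bold 3 value. SNAP25 DLAgn_00066930 and the STMN2 rows were highest in bold 3 among pituitary libraries. GFAP DLAgn_00193250, MBP DLAgn_00064210 and SYT1 DLAgn_00209370 were not, at 8.096, 51.09 and 693.3 CPM. Their pituitary maxima were 8.237, 98.68 and 760.9 CPM. The part of neighbouring brain tissue in these values was not tested.

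Glycine uptake carriers were highest in brain. SLC6A9 DLAgn_00001260 had medians of 23.7 CPM in brain, 2.06 CPM in pituitary and 0 CPM in head kidney, with a brain minus pituitary log2 difference of 3.14 ± 0.461 (SE, edgeR adjusted p = 1.08e-06). SLC6A5 DLAgn_00161750 had 0.105 to 4.66 CPM in brain (median 1.25), and 3 counts in each of the other tissues. The creatine transporter SLC6A8 was highest in brain in both of its rows: SLC6A8 DLAgn_00129900 had medians of 197 CPM in brain, 31.8 CPM in pituitary and 10.4 CPM in head kidney, and SLC6A8 DLAgn_00244690 of 122 CPM in brain, 19.2 CPM in pituitary and 1.30 CPM in head kidney. Their brain minus head kidney log2 differences were 4.28 ± 0.302 (SE, edgeR adjusted p = 2.95e-13) and 6.49 ± 0.304 (SE, edgeR adjusted p = 3.29e-17). The proline transporter row SLC6A7 DLAgn_00041170 ran the other way, with medians of 2.56 CPM in brain, 16.1 CPM in pituitary and 29.7 CPM in head kidney and a brain minus head kidney log2 difference of -3.42 ± 0.198 (SE, edgeR adjusted p = 3.79e-15). The neutral amino acid carrier SLC6A15 DLAgn_00171900 had medians of 142 CPM in brain, 64.4 CPM in pituitary and 1.16 CPM in head kidney. SLC6A17 DLAgn_00131700, a vesicular relative of it, had medians of 70.3 CPM in brain, 17.8 CPM in pituitary and 0 CPM in head kidney, while its paralog row SLC6A17 DLAgn_00093380 had 18.2 CPM in brain, 30.9 CPM in pituitary and 0 CPM in head kidney, and was higher in pituitary than in brain, at -1.09 ± 0.338 (SE, edgeR adjusted p = 0.00689). Further rows of the representative symbols had few counts. SLC6A13 DLAgn_00234340 had medians of 1.49 CPM in brain, 8.65 CPM in pituitary and 0.869 CPM in head kidney. SLC6A13 DLAgn_00219120, SLC6A11A DLAgn_00221160 and SLC1A2 DLAgn_00192860 had a median of at most 2.42 CPM in any tissue. A further 8 rows named for these carriers, SLC1A1 DLAgn_00176290, SLC1A1 DLAgn_00176960, SLC1A2A DLAgn_00161620, SLC3A2 DLAgn_00032780, SLC6A13 DLAgn_00003660, SLC6A3 DLAgn_00039810, SLC32A1 DLAgn_00070390 and SLC43A1 DLAgn_00174540, failed the count filter, with at most 1.02 CPM in any library. SLC6A11A DLAgn_00045280 was not among these low rows. It had 1830 counts in brain, 338 in pituitary and 0 in head kidney, where brain was at least 413-fold higher. The epithelial amino acid carriers SLC6A14, SLC6A18 and SLC6A19A held 10 identifiers, none of which passed the count filter in a fit.

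Heavy chains of the SLC3 family bind SLC7 light chains and bring them to the cell surface. SLC3A2A DLAgn_00142590 was called in no pair of tissues, with medians of 98.1 CPM in brain, 162 CPM in pituitary and 90.4 CPM in head kidney. SLC3A2A DLAgn_00235130 had medians of 62.0 CPM in brain, 60.5 CPM in pituitary and 0 CPM in head kidney with 3 counts in all head kidney libraries, a brain over head kidney ratio of 2510-fold (95% counting interval 857 to 12200). SLC3A2 DLAgn_00244400 had 0.116 to 19.4 CPM in brain (median 15.4) and 0.847 to 20.7 CPM in pituitary (median 14.6), and 1 head kidney count. SLC3A1 DLAgn_00015660, the heavy chain of the cystine and dibasic amino acid exchanger, was highest in pituitary, with 0 to 1.502 CPM in brain (median 0.889), 30.6 to 38.1 CPM in pituitary (median 34.3) and 0.335 to 2.40 CPM in head kidney (median 1.29), a brain minus pituitary log2 difference of -5.16 ± 0.305 (SE, edgeR adjusted p = 2.87e-14). Its known light chain SLC7A9 was highest in the same tissue: SLC7A9 DLAgn_00156490 had 0 to 0.693 CPM in brain (median 0.0629), 0.505 to 4.22 CPM in pituitary (median 2.54) and no head kidney count.

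SLC7A5, which exchanges large neutral amino acids such as leucine, had 2 rows with opposite order in brain and pituitary. SLC7A5 DLAgn_00132440 had 7.40 to 198 CPM in brain (median 166), 14.8 to 81.7 CPM in pituitary (median 45.8) and 0 to 0.663 CPM in head kidney (median 0.207), with a brain minus pituitary log2 difference of 1.63 ± 0.330 (SE, edgeR adjusted p = 0.000101). SLC7A5 DLAgn_00173190 had 54.7 to 76.4 CPM in brain (median 60.2), 125 to 276 CPM in pituitary (median 207) and 29.4 to 66.1 CPM in head kidney (median 53.1), with a brain minus pituitary log2 difference of -1.67 ± 0.136 (SE, edgeR adjusted p = 2.1e-11). Of other exchangers, SLC7A8 DLAgn_00144420 was called in no pair (medians 20.7 CPM in brain, 46.7 CPM in pituitary and 27.2 CPM in head kidney). SLC7A10 DLAgn_00154950, which carries small neutral amino acids and D-serine in mammals, had medians of 55.6 CPM in brain, 85.0 CPM in pituitary and 10.5 CPM in head kidney. SLC7A11 DLAgn_00106520, of the cystine and glutamate exchanger, had medians of 6.97 CPM in brain, 0 CPM in pituitary and 0.0412 CPM in head kidney, and its brain minus pituitary log2 difference was 6.36 ± 0.671 (SE, edgeR adjusted p = 3.46e-09). SLC7A11 DLAgn_00209270 had medians of 3.71 CPM in brain, 3.79 CPM in pituitary and 0.329 CPM in head kidney, and brain and pituitary were not called different. The cationic and neutral exchangers SLC7A6 and SLC7A7 included rows higher in head kidney than in both other tissues: SLC7A6 DLAgn_00154830 had medians of 4.66 CPM in brain, 1.48 CPM in pituitary and 13.4 CPM in head kidney, and SLC7A7 DLAgn_00144130 of 3.03 CPM in brain, 0.830 CPM in pituitary and 7.61 CPM in head kidney. SLC7A7 DLAgn_00201550 was instead higher in pituitary than in both others, with medians of 17.2 CPM in brain, 44.2 CPM in pituitary and 10.2 CPM in head kidney.

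Carriers of arginine and lysine among SLC7 showed each pattern. SLC7A3A DLAgn_00044790 was called in no pair of tissues and had medians of 71.0 CPM in brain, 86.2 CPM in pituitary and 123 CPM in head kidney. SLC7A1 DLAgn_00042990 was highest in head kidney, with medians of 0.841 CPM in brain, 4.60 CPM in pituitary and 16.4 CPM in head kidney and a brain minus head kidney log2 difference of -4.15 ± 0.334 (SE, edgeR adjusted p = 5.12e-12). SLC7A1 DLAgn_00035320 was lower in brain than in both other tissues, and pituitary and head kidney were not called different (medians 8.44 CPM in brain, 37.4 CPM in pituitary and 28.7 CPM in head kidney). SLC7A2 DLAgn_00112050 was highest in brain, with medians of 29.9 CPM in brain, 4.62 CPM in pituitary and 7.42 CPM in head kidney and a brain minus pituitary log2 difference of 2.66 ± 0.217 (SE, edgeR adjusted p = 2.23e-11). Their relatives SLC7A4 DLAgn_00115390 and SLC7A14 DLAgn_00024750 were higher in brain and pituitary than in head kidney, with medians of 81.0 CPM in brain, 178 CPM in pituitary and 1.88 CPM in head kidney for SLC7A4, and of 245 CPM in brain, 158 CPM in pituitary and 0.123 CPM in head kidney for SLC7A14. A second SLC7A14 row, SLC7A14 DLAgn_00079040, had 0.224 to 8.63 CPM in pituitary (median 3.91), 1 count in brain and none in head kidney. SLC7A6OS DLAgn_00154820, the row that is no transporter, was called in no pair and had medians of 70.1 CPM in brain, 81.4 CPM in pituitary and 73.0 CPM in head kidney.

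Of the 12 SLC38 members tested, 5 were lower in brain than in head kidney and 4 were higher. SLC38A2 DLAgn_00206310, a sodium-coupled carrier of small neutral amino acids, was highest in brain, with 231 to 380 CPM in brain (median 301), 45.9 to 146 CPM in pituitary (median 74.7) and 38.02 to 72.6 CPM in head kidney (median 48.6) and a brain minus head kidney log2 difference of 2.51 ± 0.158 (SE, edgeR adjusted p = 2.31e-14). The glutamine carrier SLC38A3 had 2 rows. SLC38A3 DLAgn_00094100 was higher in brain than in both others (medians 93.4 CPM in brain, 3.29 CPM in pituitary and 7.04 CPM in head kidney), and SLC38A3 DLAgn_00093070 was not called different between brain and pituitary (medians 42.3 CPM in brain, 33.5 CPM in pituitary and 0 CPM in head kidney). SLC38A5, a related glutamine carrier, was lower in brain than in both other tissues in each of these rows. SLC38A5B DLAgn_00127640 had 2.08 to 4.62 CPM in brain (median 2.85), 12.6 to 21.2 CPM in pituitary (median 15.6) and 93.7 to 136 CPM in head kidney (median 116), with a brain minus head kidney log2 difference of -5.28 ± 0.135 (SE, edgeR adjusted p = 1.37e-22), and no library of brain, pituitary or head kidney overlapped another tissue. SLC38A5 DLAgn_00136040 had medians of 0.747 CPM in brain, 13.6 CPM in pituitary and 18.4 CPM in head kidney, with a brain minus pituitary log2 difference of -4.21 ± 0.205 (SE, edgeR adjusted p = 4.96e-16). SLC38A4 DLAgn_00206300 was highest in head kidney too, with medians of 16.98 CPM in brain, 16.0 CPM in pituitary and 62.9 CPM in head kidney and a brain minus head kidney log2 difference of -1.61 ± 0.193 (SE, edgeR adjusted p = 1.47e-08).

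Of SLC17A5, SLC36A1, SLC38A7 and SLC38A9, known from lysosomes in mammals, no row differed between brain and pituitary by more than 1.07 on the log2 scale. SLC38A9 DLAgn_00080410, which signals lysosomal arginine to the growth kinase mTORC1, had medians of 17.96 CPM in brain, 15.8 CPM in pituitary and 40.0 CPM in head kidney, a brain minus head kidney log2 difference of -1.04 ± 0.140 (SE, edgeR adjusted p = 1.09e-07). SLC36A1 DLAgn_00112850, a proton-coupled amino acid exporter, was called in no pair, with medians of 79.8 CPM in brain, 64.4 CPM in pituitary and 56.3 CPM in head kidney. SLC38A7 DLAgn_00157860, which exports glutamine, had medians of 26.6 CPM in brain, 13.9 CPM in pituitary and 27.2 CPM in head kidney. SLC38A10 DLAgn_00099810 was lower in brain than in both other tissues (medians 35.7 CPM in brain, 119.9 CPM in pituitary and 111 CPM in head kidney). In SLC43, SLC43A1 DLAgn_00108800 and SLC43A2 DLAgn_00028870 carry large neutral amino acids. The SLC43A1 row was lower in brain than in both others, and the SLC43A2 row was lower in brain than in pituitary only. Medians were 1.73 CPM in brain, 31.1 CPM in pituitary and 31.1 CPM in head kidney for the SLC43A1 row and 41.2 CPM in brain, 92.3 CPM in pituitary and 48.0 CPM in head kidney for the SLC43A2 row. A second SLC43A2 row, SLC43A2 DLAgn_00042930, had 36.02 to 73.7 CPM in pituitary (median 54.1) and 1 count in head kidney, a pituitary over head kidney ratio of 5900-fold (95% counting interval 1060 to 233000). SLC43A3B DLAgn_00108880, whose mammalian counterpart carries purine bases, was highest in head kidney, with medians of 20.2 CPM in brain, 13.2 CPM in pituitary and 91.4 CPM in head kidney.

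Brain shy 4, a female, held an extreme value for most members tested in brain. Of 86 members tested in brain, this library was the highest of 10 for 46 and the lowest for 33, where it was highest for 39.2% and lowest for 44.7% of all tested genes. SLC1A2 DLAgn_00166210 had 390.3, 349, 458, 464 and 481 CPM in the 5 bold fish, against 101, 289, 415, 14.0 and 420.3 CPM in the 5 shy fish, and the lowest values are those of shy 4 and then shy 1. SLC6A8 DLAgn_00129900 had 209, 203, 183, 184 and 177 CPM in the 5 bold fish, against 214, 196, 188, 681 and 198 CPM in the 5 shy fish, and only shy 4 lies apart, above the rest. The vesicular carriers SLC17A7 DLAgn_00186430 and SLC17A6B DLAgn_00169200 stood at 17.3 and 11.8 CPM in shy 4, and at 46.9 and 82.3 CPM in shy 1. The 25 neuron markers summed to 9069 CPM in shy 4 and 6545 CPM in shy 1, the highest and lowest of the 10 brain libraries. A single row, SYT1 DLAgn_00209370, held 3518 CPM of the shy 4 sum, against 592 to 755 CPM in the other 9. Both STMN2 rows were also highest in shy 4 (841 and 1188 CPM). In contrast, SNAP25 DLAgn_00066930, a synaptic membrane protein gene, had 223.8 CPM in shy 4 against 967 to 1379 CPM in the other 9. GFAP DLAgn_00193250, an astrocyte marker, had 2.54 CPM in shy 4 against 33.3 to 184.5 CPM in the other 9. The part of RNA quality in these values was not tested.

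**Figure D3:**
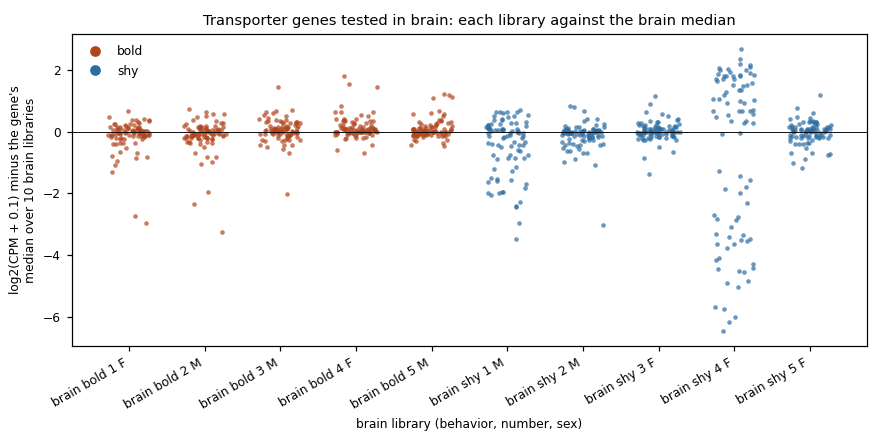
Each point is 1 of 86 transporter genes tested in brain, shown for each of the 10 brain libraries as log2(CPM + 0.1) minus the gene's median over those libraries. Brain shy 4 forms a group of genes above the line and another far below it, and brain shy 1 has a tail below the line.

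In brain, no member passed the test between bold and shy fish: 0 of 86 at an adjusted p under 0.05, against 0.00536% of all genes, by edgeR's quasi-likelihood test, and 0 by DESeq2 and limma voom. At an unadjusted p under 0.05 the members numbered 0 by edgeR (1.36% of all genes), 1 by DESeq2 and 8 by limma voom. Over all genes the numbers were 254, 597 and 1247 in the same order. The median log2 difference was -0.08, with 39 of 86 positive, and 0.01 over all genes, of which 50.7% were positive. The smallest p belonged to SLC7A11 DLAgn_00209270, with 3.79, 3.63, 4.85, 10.2 and 7.99 CPM in the 5 bold fish, against 3.63, 3.45, 2.62, 0.462 and 3.92 CPM in the 5 shy fish. The groups overlapped, and the log2 difference was 1.10 ± 0.544 (SE, edgeR adjusted p = 0.888). SLC6A17 DLAgn_00093380 was the only member whose groups did not overlap (0.971% of all genes), with 18.7, 20.0, 19.6, 19.1 and 18.3 CPM in the 5 bold fish, against 4.47, 13.4, 17.1, 0.462 and 18.04 CPM in the 5 shy fish. Its log2 difference was 0.87 ± 0.724 (SE, edgeR adjusted p = 0.888), and the lowest values are those of shy 4 and shy 1, the libraries that stood apart. Other members named by the smallest p had log2 differences of 0.90 (SLC38A3 DLAgn_00093070), 0.86 (SLC6A11A DLAgn_00045280), 1.14 (SLC6A13 DLAgn_00237110) and 0.85 (SLC17A7 DLAgn_00186430), all with an edgeR adjusted p of 0.888. On the negative side were SLC6A2 DLAgn_00155790 (-0.75), SLC7A8 DLAgn_00144420 (-0.71), SLC17A5 DLAgn_00204490 (-0.66), SLC3A2A DLAgn_00235130 (-0.60) and SLC7A4 DLAgn_00115390 (-0.44). Without shy 1 and shy 4 the log2 differences of the 10 members named by p kept their signs, and 0 members passed. In that fit 4 members and 634 of all genes had an unadjusted p under 0.05. The SLC17A7 difference was then 0.25 and the SLC7A8 difference -0.26.

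In pituitary, no member passed between bold and shy fish by edgeR. The members with the smallest p included a row of SLC7A5, a row of its heavy chain SLC3A2 and several SLC38 carriers. The count was 0 of 72 at an adjusted p under 0.05 (0% of all genes), and 14 of 72, or 19.4%, at an unadjusted p under 0.05, where 18% of all genes had one. DESeq2 passed 3 members, and 719 of all 17102 genes, and limma voom passed 0 members. At an unadjusted p under 0.05 DESeq2 had 16 members, and limma voom had 5 members and 1324 genes. The DESeq2 count over all genes at that p is not given here, so the 16 members cannot be set against it. The median log2 difference was 0.04, with 41 of 72 positive, and 0.02 over all genes, of which 51.8% were positive. SLC7A5 DLAgn_00132440 had 75.2, 53.1, 54.1, 40.1 and 81.7 CPM in the 5 bold fish, against 21.7, 14.8, 42.7, 38.5 and 49.0 CPM in the 5 shy fish. Its means were 60.9 ± 17.1 CPM across bold libraries against 33.3 ± 14.5 CPM across shy libraries (SD, n = 5 each), the groups overlapped, and the lowest values are those of the shy males. The log2 difference was 1.08 ± 0.308 (SE, edgeR adjusted p = 0.229), with an adjusted p of 0.0205 by DESeq2, and it was 0.42 (edgeR adjusted p = 0.99) without shy 1 and shy 2. Without bold 4 it was 1.41 (edgeR adjusted p = 0.0497).

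SLC3A2 DLAgn_00244400 had 17.4, 20.7, 15.6, 15.8 and 14.5 CPM in the 5 bold fish, against 4.03, 0.847, 14.1, 12.6 and 14.7 CPM in the 5 shy fish, and the values under 5 CPM are those of the shy males. Means were 16.8 ± 2.41 CPM across bold libraries against 9.25 ± 6.37 CPM across shy libraries (SD, n = 5 each), and the log2 difference was 1.41 ± 0.541 (SE, edgeR adjusted p = 0.254), with an adjusted p of 0.0402 by DESeq2. Without shy 1 and shy 2 the difference was 0.27 (edgeR adjusted p = 0.99). The other tested rows of these carriers differed less. SLC7A5 DLAgn_00173190 was at 0.27, SLC3A2A DLAgn_00142590 at 0.15 and SLC3A2A DLAgn_00235130 at 0.20 (edgeR adjusted p = 0.39, 0.563 and 0.588). SLC38A2 DLAgn_00206310 had 146, 58.8, 80.7, 81.4 and 118 CPM in the 5 bold fish, against 51.2, 78.5, 45.9, 57.8 and 70.9 CPM in the 5 shy fish, with overlapping groups. Its log2 difference was 0.68 ± 0.244 (SE, edgeR adjusted p = 0.24), and 0.97 without shy 1 and shy 2. SLC6A17 DLAgn_00131700 and SLC1A2 DLAgn_00166210 were also among the 5 positive members of smallest p, at 1.25 and 1.22. Bold 3 had the highest SLC1A2 value, 25.7 CPM. In all, 10 positive members had an unadjusted p under 0.05 by edgeR. The rest of these were SLC18A2 DLAgn_00239920 (1.95), SLC17A6B DLAgn_00169200 (1.24), SLC6A9 DLAgn_00001260 (1.00), SLC38A3 DLAgn_00093070 (0.70) and SLC7A11 DLAgn_00209270 (0.66).

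On the negative side, 2 of 72 members had groups that did not overlap, both lower in bold fish (2.15% of all genes had such groups in either direction). SLC38A6 DLAgn_00022370, an SLC38 member whose substrates are less well known, had 9.62, 9.27, 5.58, 5.90 and 8.80 CPM in the 5 bold fish, against 11.9, 15.5, 11.4, 13.8 and 12.6 CPM in the 5 shy fish. Its means were 7.83 ± 1.94 CPM across bold libraries against 13.0 ± 1.67 CPM across shy libraries (SD, n = 5 each), and its log2 difference was -0.75 ± 0.216 (SE, edgeR adjusted p = 0.229), with an adjusted p of 0.0405 by DESeq2, and it was -0.68 (edgeR adjusted p = 0.99) without shy 1 and shy 2. SLC38A5 DLAgn_00136040 had 12.5, 13.1, 8.86, 13.5 and 9.98 CPM in the 5 bold fish, against 28.4, 21.6, 13.9, 17.3 and 13.8 CPM in the 5 shy fish, with a log2 difference of -0.73 ± 0.224 (SE, edgeR adjusted p = 0.229) and -0.21 without shy 1 and shy 2. SLC38A4 DLAgn_00206300, SLC38A9 DLAgn_00080410 and SLC6A13 DLAgn_00221370 followed, at -0.49, -0.46 and -0.30. The SLC38A9 difference was 0.03 without shy 1 and shy 2. Among markers of other cells, none passed over all genes, but 16 of 20 neuron markers tested were positive for bold minus shy in pituitary (median 0.30, 6 at an unadjusted p under 0.05), 4 of 6 of brain vessel and choroid (3 at such a p), 12 of 15 of neutrophil and macrophage (0) and 7 of 7 of lymphocyte (1). Over all genes, 51.8% were positive and 18% had such a p. Positive markers numbered 5 of 10 for astrocyte and radial glia (3 at such a p), 4 of 8 for oligodendrocyte and myelin (2) and 2 of 7 for erythroid (1). They numbered 3 of 5 for kidney tubule (2 at such a p) and 3 of 4 for pituitary hormone cells (1). For interrenal and chromaffin they numbered 2 of 2 (0) and for muscle 0 of 1 (0). Summed levels were 1125 to 1653 CPM in bold and 1022 to 1340 CPM in shy pituitaries for neuron, 231.4 to 684 CPM in bold and 166 to 332 CPM in shy for brain vessel and choroid, and 15.5 to 56.5 CPM in bold and 11.6 to 27.0 CPM in shy for lymphocyte. The highest neuron sum is that of bold 3. The part of these cells in the members' values was not tested. The members at an unadjusted p under 0.05 numbered 4 without shy 1 and shy 2, 9 without shy 1 alone and 6 without shy 2 alone. Over all genes the numbers were 720, 1789 and 1580 in the same order, against 3081 in the main fit.

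**Figure D4:**
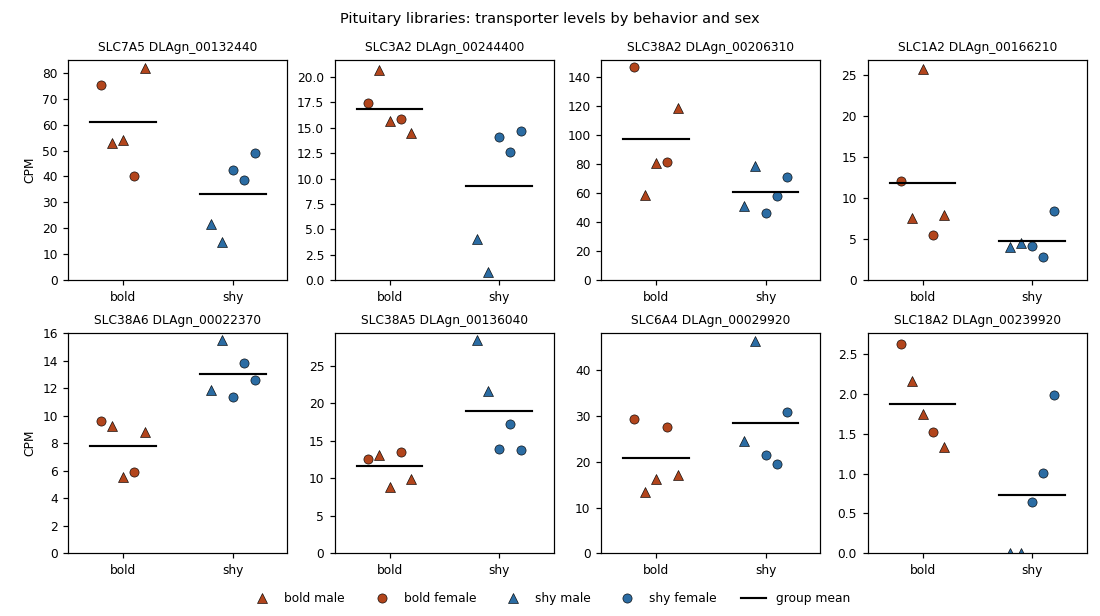
Points are the 10 pituitary libraries, bold on the left and shy on the right, coloured by behavior and shaped by sex, on linear CPM axes that start at 0, with lines at group means. The shy males have the lowest values of SLC7A5, SLC3A2 and SLC18A2 DLAgn_00239920, and SLC38A6 and SLC38A5 are lower in all 5 bold libraries than in the shy ones.

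In head kidney, no member passed by edgeR, and the smallest p was that of SLC43A2, higher in every bold fish than in every shy fish. The count was 0 of 46 at an adjusted p under 0.05 (0.00635% of all genes), and 8 of 46, or 17.4%, at an unadjusted p under 0.05, against 11.2% of all genes. DESeq2 passed 2 (134 of all genes), limma voom 0, and edgeR without the sex term 1 (4 of all genes). At an unadjusted p under 0.05 DESeq2 had 8 and limma voom 10, and their counts over all genes at that p are not given here. The median log2 difference was 0.07, with 27 of 46 positive, and -0.01 over all genes, of which 48% were positive. SLC43A2 DLAgn_00028870, which passes leucine and other large neutral amino acids across the membrane, had 56.9, 60.6, 70.8, 64.2 and 56.8 CPM in the 5 bold fish, against 36.3, 39.2, 37.5, 36.9 and 36.1 CPM in the 5 shy fish. Its means were 61.9 ± 5.86 CPM across bold libraries against 37.2 ± 1.24 CPM across shy libraries (SD, n = 5 each), and it was the only member whose groups did not overlap (2.75% of all genes). The log2 difference was 0.68 ± 0.0941 (SE, edgeR adjusted p = 0.0772), with an adjusted p of 0.0292 without the sex term and 3.13e-06 by DESeq2. Its edgeR, DESeq2 and limma adjusted p ranged up to 0.409 over the alternatives, and its log2 difference between 0.64 and 0.72.

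SLC6A12 DLAgn_00208330, the betaine transporter, had 3.85, 8.40, 7.67, 5.85 and 8.03 CPM in the 5 bold fish, against 13.2, 11.1, 7.82, 9.94 and 9.40 CPM in the 5 shy fish. Its means were 6.76 ± 1.90 CPM across bold libraries against 10.3 ± 2.01 CPM across shy libraries (SD, n = 5 each), and the groups overlapped. The log2 difference was -0.79 ± 0.156 (SE, edgeR adjusted p = 0.208), with an adjusted p of 0.00704 by DESeq2. SLC7A2 DLAgn_00112050, which carries arginine and lysine, had 3.52, 7.58, 2.63, 6.26 and 7.25 CPM in the 5 bold fish, against 13.2, 12.3, 5.70, 12.3 and 12.9 CPM in the 5 shy fish. Shy 3 alone lay within the bold range, and the log2 difference was -1.14 ± 0.314 (SE, edgeR adjusted p = 0.338). The serotonin transporter row SLC6A4 DLAgn_00029920 was at -0.74, and SLC38A3 DLAgn_00094100 and SLC38A5 DLAgn_00136040 at -0.52 and -0.28. SLC38A2 DLAgn_00206310 had 67.5, 47.6, 49.7, 64.8 and 72.6 CPM in the 5 bold fish, against 39.3, 38.02, 39.4, 70.0 and 39.7 CPM in the 5 shy fish, with shy 4 within the bold range, and a log2 difference of 0.43 ± 0.165 (SE, edgeR adjusted p = 0.394). Among others with small p, SLC7A3A DLAgn_00044790 and SLC36A1 DLAgn_00112850 were at 0.32 and 0.25. The 13 lymphocyte markers summed to 552.1 to 938 CPM in bold and 397.5 to 629 CPM in shy head kidneys. Of the 9 tested, 7 were positive and 4 had an unadjusted p under 0.05, against 48% and 11.2% of all genes. Neutrophil and macrophage markers had 9 of 20 positive (2 at such a p), and erythroid markers 1 of 5 (1 at such a p). The 12 interrenal and chromaffin markers summed to 427.8 to 1605 CPM in bold and 610 to 1001 CPM in shy, with 2 of 8 tested positive. Positive markers numbered 15 of 19 for oligodendrocyte and myelin, 5 of 6 for brain vessel and choroid and 0 of 4 for liver and plasma. For astrocyte and radial glia they numbered 1 of 3, for neuron 1 of 1, and for pituitary hormone cells and muscle 0 of 1 each. None of these last 8 lists had a marker at such a p. The part of cell make-up in these values was not tested.

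**Figure D5:**
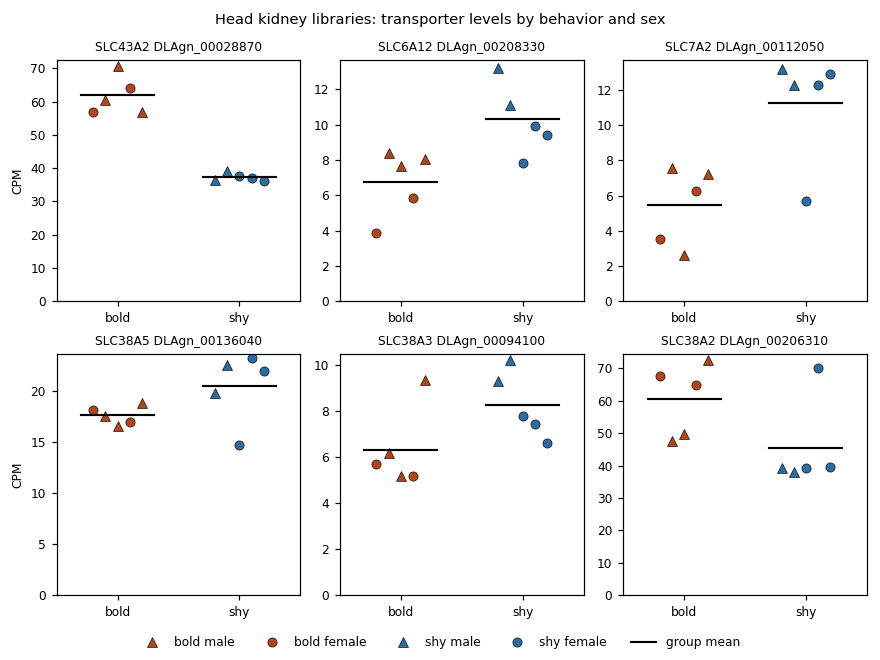
Points are the 10 head kidney libraries, bold on the left and shy on the right, coloured by behavior and shaped by sex, on linear CPM axes that start at 0, with lines at group means. SLC43A2 is the panel without overlap, with 56.8 to 70.8 CPM in bold and 36.1 to 39.2 CPM in shy fish.

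No member passed the test of a difference in the bold minus shy effect between tissues: 0 of 92 for pituitary minus brain, for head kidney minus brain and for head kidney minus pituitary (0% of all genes each), by edgeR, and 0 by DESeq2 and limma voom. At an unadjusted p under 0.05 the members numbered 10, 10 and 7, or 10.9%, 10.9% and 7.61%, against 5.21%, 7.08% and 4.95% of all genes. For SLC43A2 DLAgn_00028870 the head kidney effect exceeded the brain effect by 0.80 ± 0.251 (SE, edgeR adjusted p = 0.676) and the pituitary effect by 0.60 ± 0.25 (SE, edgeR adjusted p = 0.938).

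Between males and females, no member passed in any tissue by edgeR, DESeq2 or limma voom (0% of all genes by edgeR in each). At an unadjusted p under 0.05 there were 0 of 86 in brain (0.477% of all genes), 9 of 72 in pituitary (12.5% against 13.5%) and 3 of 46 in head kidney (6.52% against 3.58%) by edgeR. DESeq2 had 0, 11 and 3, and limma voom 6, 4 and 4. Of all genes, limma voom had 854 in brain and 955 in pituitary. The other counts over all genes by these 2 tools are not given here, so those members cannot be set against them. With a library left out, the edgeR counts were 0 to 4 in brain, 4 without shy 4 (906 genes, main fit 89). In pituitary they were 4 to 15, 4 without shy 1 (916 genes) and 15 without bold 1 (3959 genes, main fit 2316). In head kidney they were 1 to 6, 1 without shy 2 (417 genes) or shy 5 (451 genes). The 6 was without bold 2 (566 genes, main fit 564). In brain, 16 of 86 members had a positive male minus female difference (median -0.22), against 8127 of 18640 genes (median -0.05). In pituitary 44 of 72 were positive (median 0.09), against 8769 of 17102 genes (median 0.01). In head kidney 30 of 46 were positive (median 0.07), against 7728 of 15741 genes (median 0). Brain shy 4, a female, was the highest brain library for 46 of the 86 members and the lowest for 33 (39.2% and 44.7% of all genes). The part of this library in the brain median was not tested. The smallest p in pituitary was that of SLC43A2 DLAgn_00028870, with 98.8, 138, 86.4, 119 and 137 CPM in the 5 males, against 98.2, 76.5, 75.8, 76.8 and 52.9 CPM in the 5 females. Means were 116 ± 23.0 CPM in males and 76.0 ± 16.0 CPM in females (SD, n = 5 each), the groups overlapped, and the log2 difference was 0.62 ± 0.181 (SE, edgeR adjusted p = 0.363). SLC1A3A DLAgn_00118940 averaged 150.5 ± 27.9 CPM in males and 115 ± 14.1 CPM in females (SD, n = 5 each), at 0.40 ± 0.148 (SE, edgeR adjusted p = 0.363), and SLC3A2A DLAgn_00235130 averaged 49.8 ± 15.0 CPM in males and 68.9 ± 11.0 CPM in females (SD, n = 5 each), at -0.52 ± 0.203 (SE, edgeR adjusted p = 0.363). Without shy 1 and shy 2 these log2 differences were 0.31, 0.36 and -0.06, and 3 members and 329 of all genes had an unadjusted p under 0.05. In head kidney, SLC6A12 DLAgn_00208330 had 8.40, 7.67, 8.03, 13.2 and 11.1 CPM in the 5 males, against 3.85, 5.85, 7.82, 9.94 and 9.40 CPM in the 5 females, with overlapping groups and a log2 difference of 0.58 ± 0.156 (SE, edgeR adjusted p = 1). In brain, SLC7A1 DLAgn_00035320 was the only member with separate groups (0.429% of all genes), with 5.90, 8.24, 7.81, 5.98 and 8.44 CPM in the 5 males, against 8.58, 8.45, 9.68, 29.5 and 8.56 CPM in the 5 females, a log2 difference of -0.63 ± 0.378 (SE, edgeR adjusted p = 1). The highest male and the lowest female are almost level, and the highest female is shy 4.

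Other members with small p between the sexes had the following log2 differences, male minus female, with overlapping groups in each and none past the test. In brain they were SLC17A8 DLAgn_00166550 (0.96), SLC1A3 DLAgn_00079690 (0.68), SLC7A2 DLAgn_00111040 (0.52), SLC38A11 DLAgn_00050460 (0.50) and SLC3A1 DLAgn_00015660 (0.48) on the positive side, and SLC1A3A DLAgn_00118940 (-0.68), SLC7A3A DLAgn_00044790 (-0.68), SLC6A2 DLAgn_00155790 (-0.61) and SLC43A3B DLAgn_00108880 (-0.53) on the negative side (edgeR adjusted p = 1 for each). Without brain shy 1 and shy 4 the difference was -0.14 for SLC1A3A, -0.12 for SLC7A3A, -0.34 for SLC6A2, -0.24 for SLC43A3B and -0.17 for SLC7A1 DLAgn_00035320. On the positive side it was then 0.29 for SLC1A3 DLAgn_00079690, 0.27 for SLC38A11, 0.18 for SLC3A1, 0.86 for SLC17A8 and 1.00 for SLC7A2. In that fit 3 members and 639 of all genes had an unadjusted p under 0.05. SLC38A11 DLAgn_00050460 and SLC7A2 DLAgn_00111040 were brain rows of low level, with brain medians of 1.11 and 0.795 CPM, and 0 CPM in both other tissues. In pituitary they were SLC38A4 DLAgn_00206300 (0.42), SLC7A14 DLAgn_00024750 (0.39) and SLC6A13 DLAgn_00221370 (0.36), and on the negative side SLC7A10 DLAgn_00164290 (-1.57), SLC7A14 DLAgn_00079040 (-1.57), SLC3A2 DLAgn_00244400 (-1.10) and SLC38A3 DLAgn_00093070 (-0.70), with edgeR adjusted p between 0.363 and 0.377. Without shy 1 and shy 2 the SLC3A2 difference was 0.03 and the SLC7A14 DLAgn_00024750 difference 0.00. In head kidney they included SLC38A3 DLAgn_00094100 (0.40), SLC6A7 DLAgn_00041170 (0.32) and SLC38A4 DLAgn_00206300 (0.28), and SLC6A8 DLAgn_00244690 (-0.43), SLC6A13 DLAgn_00219120 (-0.42), SLC38A2 DLAgn_00206310 (-0.28), SLC7A10 DLAgn_00154950 (-0.20) and SLC17A5 DLAgn_00204490 (-0.20) (edgeR adjusted p = 1 for each).

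The bold minus shy effect differed between the sexes for 7 of 72 members in pituitary (9.72%, against 9.58% of all genes), and for none in brain or head kidney (0% and 0.0191% of all genes). The only shy males are pituitary shy 1 and shy 2, so this interaction and the library differences above cannot be told apart, and it cannot be estimated without them. In brain 0 members (0.408% of all genes) and in head kidney 1 (3.73%) had an unadjusted p under 0.05 by edgeR, and DESeq2 and limma voom passed 0 in both. The pituitary count was 12 by DESeq2, 1 by limma voom, and 1 without shy 2 or without shy 4. Over all genes the numbers were 2263, 845, 711 and 986 in the same order, against 1639 in the main fit.

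SLC3A2 DLAgn_00244400, the exchanger heavy chain whose library values are given above, averaged 16.9 CPM in bold males, 2.44 CPM in shy males, 16.6 CPM in bold females and 13.8 CPM in shy females. The log2 effect in males exceeded that in females by 2.71 ± 0.611 (SE, edgeR adjusted p = 0.0198). SLC18A2 DLAgn_00239920, a monoamine vesicle carrier row, had 2.63, 2.16, 1.75, 1.52 and 1.33 CPM in the 5 bold fish, against 0, 0, 0.639, 1.01 and 1.98 CPM in the 5 shy fish, and neither shy male had a count. A second called row, SLC7A14 DLAgn_00079040, had 4.50, 5.59, 3.17, 5.39 and 3.10 CPM in the 5 bold fish, against 0.224, 0.658, 3.32, 4.75 and 8.63 CPM in the 5 shy fish, with an interaction of 3.10 ± 0.805 (SE, edgeR adjusted p = 0.0345). SLC7A6OS DLAgn_00154820 was the other positive row, at 0.96. Negative interactions included those of SLC6A4 DLAgn_00029920 (-1.48) and SLC7A7 DLAgn_00201550 (-1.11). The serotonin transporter row averaged 15.5 CPM in bold males, 35.4 CPM in shy males, 28.4 CPM in bold females and 23.8 CPM in shy females, and the SLC7A7 row 37.2 CPM in bold males, 67.7 CPM in shy males, 48.5 CPM in bold females and 41.4 CPM in shy females.

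Neighbouring pathways were read from lists of their genes, and no gene of them passed between bold and shy fish. Of genes induced by amino acid shortage (the transcription factor ATF4 and its targets), 24 of 29 tested had a positive log2 difference in pituitary. Their median was 0.24, and 8 had an unadjusted p under 0.05. Over all genes 51.8% were positive, the median was 0.02 and 18% had such a p. For male minus female in the same fit, 4 of the 29 were positive, with a median of -0.24 and 3 at such a p. The part of the shy libraries that stood apart in this was not tested. The same list had 14 of 29 positive in head kidney (median -0.04) and 15 of 33 in brain (median -0.03). The smallest p of the list in pituitary was that of ATF3 DLAgn_00072470, a stress-induced transcription factor, with a log2 difference of 2.56 ± 0.566 (SE, edgeR adjusted p = 0.229). The summed level of the 33 genes was 1220 to 1329 CPM in bold and 870 to 1271 CPM in shy pituitaries. Genes of amino acid sensing by mTORC1 had 14 of 23 positive in pituitary, 15 of 22 in head kidney and 9 of 23 in brain, where 51.8%, 48% and 50.7% of all genes were positive. Genes of transmitter synthesis and breakdown had 7 of 14, 8 of 15 and 13 of 25 in the same order.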

How the data were processed

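Raw read counts per gene were used as deposited by the authors, in 1 table of 26719 gene identifiers by 30 libraries. The submitters' processing notes name featureCounts 1.6.2 for counting and TopHat2 2.1.1 and Bowtie2 2.2.9 for alignment tools, beside SAMtools 1.5, bcl2fastq 2.20 and FastQC. Per the labels' protocols the kit kept strand. Which genome build, annotation and strand option served the counting is not given here, so reads of overlapping or near-identical genes may be divided in ways that cannot be followed. No sequence or position is printed, since the identifiers were matched to none here.

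Fits used edgeR 4.0.16 in R 4.3.3, with TMM factors, filterByExpr at a minimum count of 10 and the robust quasi-likelihood test. Benjamini-Hochberg adjustment ran over all genes of a fit, with a threshold of 0.05. Behavior and sex were terms of 1 fit per tissue, and their product was added for the interaction. Tissues were compared in 1 fit of the 30 libraries with sex as a term, and a call there also needed an absolute log2 difference of at least 1. CPM are counts per 1e6 of effective library size, with no division by gene length, so levels are compared within a gene. A fold against a tissue with no count uses a floor of 3 counts over its 10 libraries, and ratios with 1 to 3 counts carry an exact 95% interval. Floors and intervals cover counting error only. P-values set a difference against the spread between libraries. The SE of a log2 difference is its absolute value divided by the square root of the F statistic of edgeR's test. It is thus calculated back from the test, and is approximate where a tissue had few or no counts. In the fit of the 30 libraries all tissues shared an estimate of that spread, and the libraries of a fish were treated as independent.

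Alternatives were size factors in place of TMM, other low-count filters, DESeq2 1.42.0, limma 3.58.1 voom with sample quality weights, no sex term, a joint fit and the omission of single libraries. The omission of brain shy 1 and 4, or of pituitary shy 1 and 2, was chosen after seeing the data. The members, gene lists and tests were chosen with earlier results of these data known. Named genes were members that passed a behavior, sex or interaction test, the 5 of smallest p on each side of behavior and sex per tissue, the 6 largest called differences on each side per tissue pair, and every row of a set of representative symbols. The rule also named members that passed only between tissues, and these are given by counts where no other clause applies. Some named rows are counted with the members but not reported here singly. The fits were tested on simulated data, where those of brain recovered a smaller share of the set changes than those of pituitary and head kidney.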

Additional observations from a re-analysis of the deposited data

Results flagged for a closer look

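Single libraries far from the other 4 of their group were looked for in 60 groups of 5 libraries, those of the members named by behavior. A library was marked where its gap to the nearest other exceeded 0.71 of the group's range, and 9 groups had one. For independent groups of normal values, chance marks about 1 in 20. These groups share libraries, and their members were named by p in the same libraries, so the 9 cannot be set against that rate.

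Brain shy 4 gave 5 of the 9 marks, each above the other shy brains. It had 194 CPM of SLC3A2A DLAgn_00235130 (next 85.8), 51.3 CPM of SLC6A2 DLAgn_00155790 (next 17.9) and 83.2 CPM of SLC7A8 DLAgn_00144420 (next 27.4). It also had 208 CPM of SLC7A4 DLAgn_00115390 (next 115) and 18.7 CPM of SLC17A5 DLAgn_00204490 (next 7.8). These are the 5 members with the smallest p among those with a negative bold minus shy difference in brain. Among bold brains, bold 1 had 87.8 CPM of SLC7A4 DLAgn_00115390 (next 77.5).

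In head kidney, shy 4 had 70.0 CPM of SLC38A2 DLAgn_00206310 (next 39.7) and bold 5 had 9.37 CPM of SLC38A3 DLAgn_00094100 (next 6.17). Shy 3 had 5.70 CPM of SLC7A2 DLAgn_00112050, below the others (next 12.3).

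The bold minus shy effect in pituitary differed between males and females, by edgeR's interaction test, for 7 of 72 members (9.72%). The share over all genes was nearly the same, 9.58%. The members given here are among the 7. The male minus female log2 difference of the effect was 2.71 for SLC3A2 DLAgn_00244400, 3.10 for SLC7A14 DLAgn_00079040 and 0.96 for SLC7A6OS DLAgn_00154820. It was -1.48 for SLC6A4 DLAgn_00029920 and -1.11 for SLC7A7 DLAgn_00201550. The fitted value of SLC18A2 DLAgn_00239920, 6.20, depends on the prior count, because both shy males had no count. Both shy males are libraries that stood apart, so the interaction and the libraries cannot be told apart.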

How the results depend on the processing

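Counts of members passing behavior tests moved with the tool. For bold minus shy, DESeq2 passed 3 members in pituitary and 2 in head kidney, and edgeR without the sex term passed 1 in head kidney, against 0 by edgeR. Over all genes these settings passed 719, 134 and 4 in the same order. Leaving out each pituitary library gave 0 to 1 member by edgeR, the 1 being without bold 4, where 73 of all genes passed. The pituitary interaction passed 7 members by edgeR, 12 by DESeq2, 1 by limma voom, and 1 to 10 with a library left out. Over all genes it passed 1639 by edgeR, 2263 by DESeq2 and 845 by limma voom. Without pituitary shy 1 and 2, added after seeing the data, 3 log2 differences lost their sign: 0.03 (0.034 before rounding) for SLC38A9 DLAgn_00080410, bold minus shy, and 0 for SLC7A14 DLAgn_00024750 and 0.028 for SLC3A2 DLAgn_00244400, male minus female. The head kidney male minus female difference of SLC7A10 DLAgn_00154950 was -0.317 to 0.019 with a library left out, the positive value being without shy 2. The cause was not tested in any of these. Of the named members' other values under the alternatives, 180 of 180 kept direction and call in brain for behavior, 175 of 180 in pituitary (4 gained the call, 1 reversed), 167 of 170 in head kidney (3 gained it), and 444 of 444 for brain minus pituitary and for brain minus head kidney. No member was called for behavior in the main fits, so a kept call there means only that the member stayed uncalled. A kept direction does not speak to size. Without pituitary shy 1 and 2, the bold minus shy difference of SLC3A2 DLAgn_00244400 went from 1.41 to 0.27. The pituitary interaction kept its direction in 105 of 105, and lost the call in 52. Pituitary minus head kidney kept 437 of 444 and lost the call in 7, all for SLC17A7 DLAgn_00186430, called at -2.88 (edgeR adjusted p = 0.0384). Called tissue counts with a library left out were 59 to 63 for brain minus pituitary, 69 to 73 for brain minus head kidney and 57 to 60 for pituitary minus head kidney. No paired analysis was possible because the labels do not say which libraries come from the same fish, and replicate numbers only follow the deposit order. Depth limits members with few counts: 29 of 121 passed no filter, and a difference in them was not detectable here.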
